A study of Bos taurus with 33 samples.

Results

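Translation initiation factors were examined in bovine oocytes and in the cumulus cells (CC) that enclose them. The group comprised every gene whose symbol begins with EIF and a digit, with 1 such gene left out, and was made up of 53 of the 17543 genes in the 2 deposited tables. All 53 genes were listed in both tables. After the filter on low values (a minimum of 5 CPM, the reads of a gene scaled to a common library total, reached by 4 oocyte pools or 5 CC pools) 52 were retained in oocytes and 52 in CC, of which 51 were retained in both. EIF4E3 passed in oocytes alone and EIF5A2 in CC alone. The symbol began with EIF in both tables for 46 genes, in the oocyte table alone for 6 and in the CC table alone for 1, and these 7 were joined by their Ensembl gene. Gene symbol and function did not always go together. EIF2C2 is Argonaute 2, which carries small RNAs, and EIF4A3 is an RNA helicase of the exon junction complex. Both were kept because the symbol was the only criterion.

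Initiation factors bring the ribosome to the start codon of an mRNA. The eIF4F complex binds the cap through eIF4E, unwinds the leader with the helicase eIF4A and joins them on the scaffold eIF4G, eIF3 and eIF2 with the initiator tRNA load the small ribosomal subunit, and eIF5B joins the large subunit. Cells adjust the rate through 4E-binding proteins, which take eIF4E away from eIF4G, and through kinases that phosphorylate eIF2 and thereby block its exchange factor eIF2B. The fully grown oocyte makes little new RNA and depends on stored mRNA, so that control of translation is a main route by which its proteins change during maturation.

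The pools came from postpartum beef cows whose follicles had been synchronized with gonadotropin releasing hormone (GnRH) followed by prostaglandin F2 alpha. Cows without estrus received GnRH again, which induced the gonadotropin surge in small follicles (at most 11.7 mm) and large follicles (at least 12.7 mm). Cows in estrus did not receive it and had their own surge, and their follicles (11.7 to 14.0 mm) are called spontaneous. Each library held oocytes or CC of 4 complexes, aspirated about 23 h after GnRH or estrus according to the protocol, or about 20 h according to the stage label. Oocytes gave 6 small, 6 large and 4 spontaneous pools, and CC gave 6 small, 6 large and 5 spontaneous pools. Size and the kind of surge differ together between small and spontaneous follicles, and the diameter limits of large and spontaneous follicles differ as well, so that size and surge cannot be told apart in either comparison. The labels do not say that pools shared or did not share cows, so p-values measure the spread between these pools.

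Reads assigned to genes ran from 7664375 to 17934916 per oocyte pool and from 1911600 to 5772431 per CC pool. Where no read was found, a level of up to 3 reads remained possible, which is 0.167 to 0.391 CPM in oocytes and 0.52 to 1.57 CPM in CC, and this limit allows for counting error alone, since amplified reads are not separate molecules. The oocyte markers (9 of 10 listed) summed to 10802 to 15282 CPM in oocyte pools and, with 4 of the 10 listed there, to 0 to 6.76 CPM in CC pools. The cumulus markers (9 of 10 listed) summed to 3193 to 8370 CPM in CC pools and to 140 to 616 CPM in oocyte pools, and the hyaluronan synthase HAS2 of that list was the higher in oocytes (mean 193 against 75.5 CPM). Mitochondrially encoded transcripts took 0.766 to 4.33% of the reads in oocyte pools and 11.4 to 38.7% in CC pools, which lowers the CPM of all other genes in CC. Fewer cells of a type and less RNA per cell cannot be told apart in pooled RNA.

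All 53 initiation factors had reads in both cell types, and the levels of most overlapped between oocytes and CC. The 53 transcripts summed to 9369 CPM ± 339 (SD, n = 16) in oocytes and 9217 CPM ± 852 (SD, n = 17) in CC. The eIF4E-binding repressor EIF4ENIF1, the heme-regulated kinase EIF2AK1 and the subunit-joining factor EIF5B had the greatest excess in oocytes, and the eIF3 scaffold EIF3A, the helicase cofactor EIF4B and the eIF4G relative EIF4G2 the greatest in CC among those whose ranges did not overlap. Of 51 transcripts with a mean of at least 5 CPM in either cell type, 10 (19.6%) had ranges that did not overlap between the 16 oocyte and 17 CC pools, 7 of them higher in oocytes and 3 higher in CC. The same held for 37.6% of all 10965 genes compared (23.8% higher in oocytes and 13.8% higher in CC). The median absolute difference in mean log2(CPM + 1) was 1.09 over the 51 transcripts and 1.87 over all genes. The 2 tables were scaled separately, so these differences are described and were not tested. When all pools were rescaled together by median of ratios, or CPM was recomputed without mitochondrially encoded genes, 16 transcripts (31.4%) had ranges that did not overlap (6 and 7 higher in oocytes, 10 and 9 higher in CC). Over all genes the shares were 39.1% with median of ratios (19.9% higher in oocytes and 19.2% higher in CC). Without mitochondrially encoded genes they were 38.8% (20.7% and 18.1%), so all genes also moved toward CC. Those rescalings moved the median difference of all genes (oocyte minus CC, log2) from 0.15 to -0.20 and -0.12, and that of the 51 transcripts from -0.40 to -0.78 and -0.69. The sign was the same under all 3 scalings for 44 of 51 transcripts and in all 3 follicle classifications for 42 of 51.

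**Figure D1:**
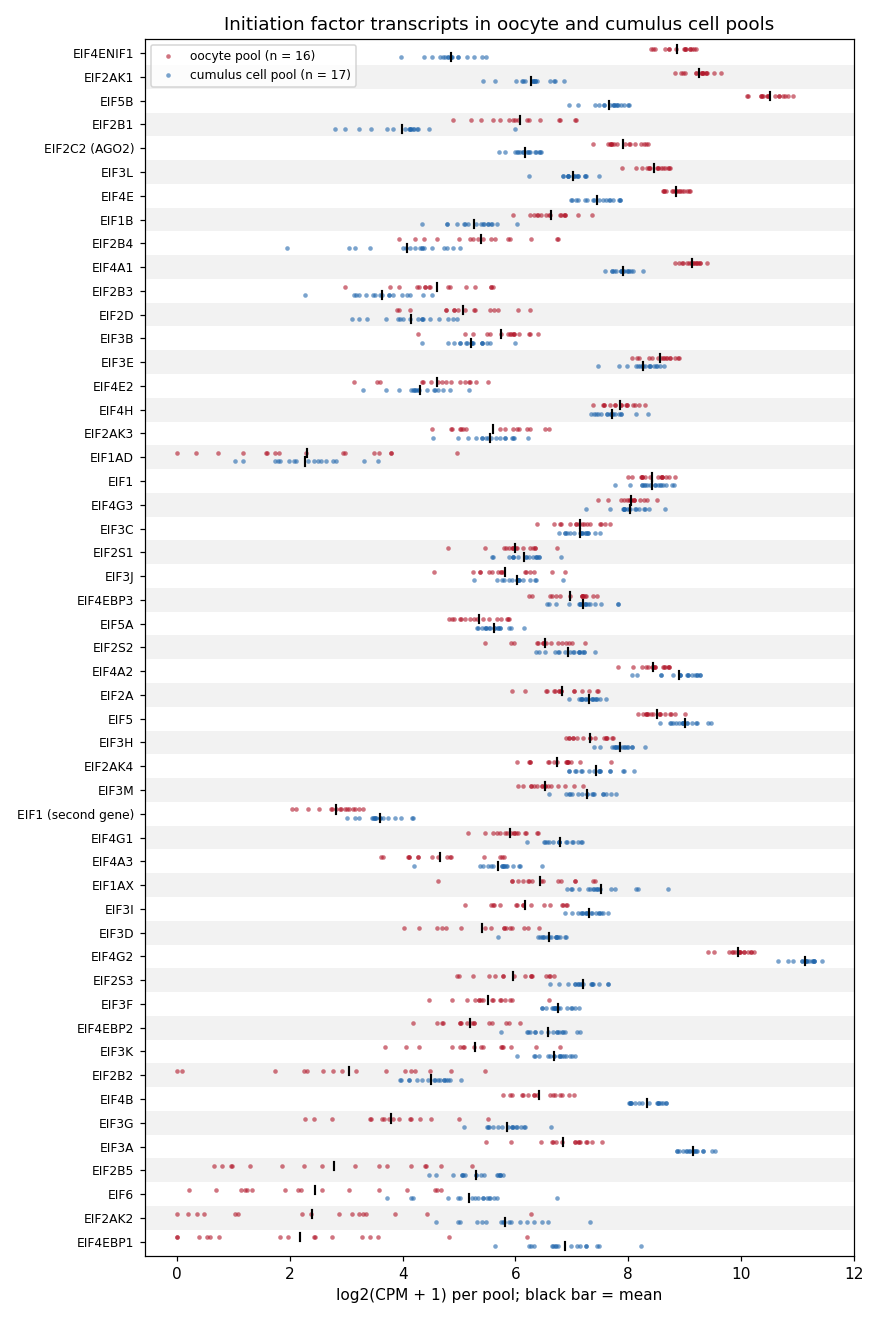
Level of 51 initiation factor transcripts, log2(CPM + 1), in each oocyte pool (red, n = 16) and each CC pool (blue, n = 17), with the mean as a black bar and transcripts ordered by the difference of the means. EIF4ENIF1, EIF2AK1 and EIF5B at the top have no oocyte pool within the CC range, and EIF4EBP1 and EIF2AK2 at the bottom have means far lower in oocytes with single high oocyte pools.

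Among the factors that find the start codon, EIF5B stood apart. EIF5B, the GTPase that joins the ribosomal subunits, had 1102 CPM in the lowest, 1433 in the median and 1929 in the highest oocyte pool, against 122, 215 and 259 CPM in CC. Every oocyte pool was above every CC pool, and the mean was 7.27-fold higher (1489 ± 244 against 205 ± 37.8 CPM, SD, n = 16 and 17). EIF1B, a close relative of the start-codon fidelity factor EIF1, was 2.59-fold higher in oocytes (101 ± 25.4 against 39.0 ± 10.7 CPM), with overlapping ranges. EIF1 itself had 348 ± 59.0 CPM in oocytes and 346 ± 60.7 in CC, and the sign of its difference depended on the scaling. EIF5, which triggers GTP hydrolysis by eIF2, had 369 ± 62.4 CPM in oocytes and 517 ± 87.6 in CC. EIF1AX, a partner of EIF1, was lower in oocytes (93.6 ± 39.8 against 192 ± 74.7 CPM), also with overlap. A second gene bearing the EIF1 symbol was low in both (6.23 ± 1.73 and 11.4 ± 2.84 CPM), and reads of the 2 copies may not have been separated fully. EIF1AD, which shares the EIF1A domain, had 6.60 ± 7.77 CPM in oocytes with 1 pool without a read and 4.34 ± 2.55 in CC, with a sign that depended on the scaling.

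The 3 subunits of eIF2, which carries the initiator tRNA, overlapped between the cell types. EIF2S1, the subunit that the kinases phosphorylate, had 64.9 ± 17.7 CPM in oocytes and 72.1 ± 15.9 in CC. EIF2S2 had 95.4 ± 27.4 and 124 ± 24.7 CPM. EIF2S3, the subunit that binds the tRNA and GTP, had 65.7 ± 24.0 CPM in oocytes and 148 ± 28.3 in CC, and its ranges came apart under either rescaling. The non-canonical factors EIF2A (117 ± 33.2 and 157 ± 17.8 CPM) and EIF2D (36.2 ± 17.4 and 17.98 ± 6.89 CPM) lay in opposite directions.

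The 4 eIF2 kinases each answer to a different stress and had different cell-type patterns. EIF2AK1, activated when heme is short, had 452 CPM in the lowest, 631 in the median and 802 in the highest oocyte pool, against 41.8, 78.7 and 116 CPM in CC. All oocyte pools were above all CC pools, with a 7.80-fold higher mean. EIF2AK2, the kinase PKR that is activated by double-stranded RNA, had 0, 5.25 and 76.5 CPM as its lowest, median and highest value in oocytes and 23.1, 54.8 and 159 CPM in CC. The highest oocyte value was in large replicate 6, which also had the highest sum of cumulus markers among oocyte pools (616 CPM), and the part of CC RNA in it was not tested. EIF2AK4, the amino acid sensor GCN2, had 110 ± 33.8 CPM in oocytes and 176 ± 44.4 in CC. EIF2AK3, the endoplasmic reticulum kinase PERK, had 52.6 ± 23.7 and 47.8 ± 12.9 CPM, with a sign that depended on the scaling.

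The subunits of eIF2B did not move together between cell types. The regulatory subunit EIF2B1 was 4.23-fold higher in oocytes (72.9 ± 32.5 against 17.2 ± 12.6 CPM), EIF2B4 2.66-fold (47.6 ± 28.3 against 17.9 ± 7.82) and EIF2B3 2.16-fold (26.3 ± 12.6 against 12.2 ± 4.51). EIF2B2 was lower in oocytes (11.9 ± 11.6 against 22.2 ± 5.06 CPM), with no read in 1 pool, and so was EIF2B5, the catalytic subunit (10.3 ± 10.7 against 39.6 ± 10.7 CPM). Each of the 5 kept its sign in all 3 follicle classifications and under all 3 scalings, and for each the ranges overlapped. The ratio of EIF2B1 to EIF2B5 within a pool, which was chosen after the values were seen, was 1.01 to 5.23 in oocytes and -2.81 to 0.33 in CC on the log2 scale of CPM + 1, without overlap. That of EIF2B4 to EIF2B5 overlapped, with -1.01 to 5.96 in oocytes and -3.73 to 0.31 in CC. EIF2B5 differed in the opposite direction to EIF2B1 and EIF2B4, so these ratios restate those differences.

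All 13 subunits of eIF3 measured here were found in both cell types. EIF3L, a peripheral subunit, had 235 CPM in the lowest, 366 in the median and 428 in the highest oocyte pool, and 74.8, 130 and 177 CPM in CC. Its ranges did not overlap, with a 2.72-fold higher mean in oocytes, although they did overlap after median-of-ratios scaling. EIF3A, the largest scaffold subunit, had 43.4, 132 and 185 CPM in oocytes and 463, 564 and 740 CPM in CC. No oocyte pool reached the CC range, and the mean was 4.69-fold higher in CC. The within-pool log2 ratio of EIF3L to EIF3A, also chosen after the values were seen, ran from 0.70 to 3.24 in oocytes and from -2.61 to -1.65 in CC. The 2 genes separated in opposite directions, so this ratio could not overlap and is no further result. The other 11 subunits overlapped in CPM as deposited. Under either rescaling the ranges of EIF3F, EIF3H and EIF3I came apart, higher in CC, and those of EIF3D did so with median of ratios. EIF3G (15.4 ± 10.3 against 58.4 ± 14.6 CPM), EIF3K (43.8 ± 24.9 against 104 ± 18.6) and EIF3F (47.1 ± 16.9 against 109 ± 15.2) were lower in oocytes, EIF3B was higher (55.7 ± 16.8 against 37.0 ± 9.34), and EIF3C, whose product stands at the core beside EIF3A, had 144 ± 34.0 and 141 ± 19.9 CPM. EIF3D, which can bind the cap itself, had 46.5 ± 21.2 CPM in oocytes and 96.6 ± 15.8 in CC. EIF3I (76.4 ± 28.7 and 158 ± 21.9 CPM), EIF3M (93.7 ± 22.05 and 157 ± 34.1) and EIF3H (162 ± 33.3 and 232 ± 34.0) also had the lower mean in oocytes. EIF3J, a loosely bound subunit, had 59.8 ± 24.5 and 66.1 ± 16.4 CPM, and EIF3E had 383 ± 65.6 and 311 ± 56.2 CPM with a sign that depended on the scaling. The median difference over the 13 subunits was -0.74 on the log2 scale.

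**Figure D2:**
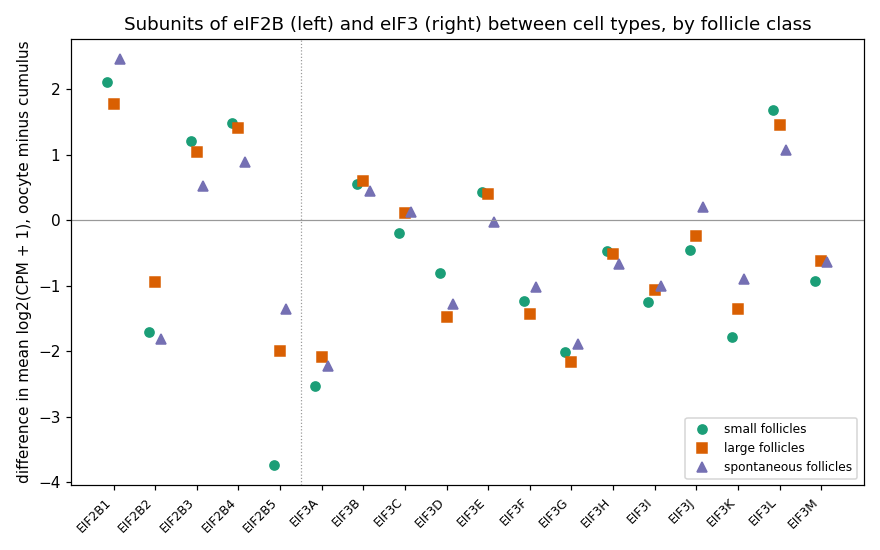
Difference in mean log2(CPM + 1), oocyte minus CC, for the 5 subunits of eIF2B (left of the dotted line) and the 13 of eIF3, computed within small (circles), large (squares) and spontaneous (triangles) follicles. EIF2B1, EIF2B3, EIF2B4, EIF3B and EIF3L lie above 0 and EIF2B2, EIF2B5, EIF3A and EIF3G below 0 in all 3 classifications, and EIF2B5 runs from -3.73 in small to -1.36 in spontaneous follicles.

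In the cap-binding machinery the cap-binding protein and 1 helicase were higher in oocytes. EIF4E had 392 CPM in the lowest, 465 in the median and 547 in the highest oocyte pool, and 126, 178 and 232 CPM in CC. The helicase EIF4A1 had 456, 565 and 670 CPM in oocytes and 192, 236 and 306 CPM in CC. For both, every oocyte pool was above every CC pool, with means 2.61-fold and 2.34-fold higher. EIF4A2, the other helicase of the complex, had 353 ± 56.1 CPM in oocytes and 492 ± 110 in CC. On the CC side, EIF4B, which stimulates the helicase, had 53.7 to 131 CPM in oocytes and 259 to 408 in CC, a 3.74-fold higher mean. EIF4G2, an eIF4G relative that cannot bind eIF4E, had 681 to 1205 CPM in oocytes and 1608 to 2759 in CC, a 2.29-fold higher mean. The scaffold EIF4G1 had 60.0 ± 13.3 CPM in oocytes and 111 ± 19.9 in CC, with overlap that was lost under either rescaling. The scaffold EIF4G3 had 266 ± 44.9 and 267 ± 55.0 CPM, with a sign that depended on the scaling. EIF4E2, which binds the cap without promoting initiation, had 25.7 ± 10.5 and 19.8 ± 6.14 CPM with a sign that depended on the scaling, and EIF4E3 was low in both (3.45 ± 3.50 and 3.22 ± 2.05 CPM, with 1 oocyte pool without a read). EIF4H, a cofactor like EIF4B, had 233 ± 41.4 and 211 ± 41.8 CPM, again with a sign that depended on the scaling.

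The proteins that hold eIF4E showed the widest contrasts. EIF4ENIF1, also called 4E-T, which brings eIF4E to stored and repressed mRNA, had 339 CPM in the lowest, 510 in the median and 585 in the highest oocyte pool, against 14.8, 27.8 and 43.7 CPM in CC. The ranges were far apart, with a 16.6-fold higher mean in oocytes (476 ± 84.2 against 28.7 ± 7.36 CPM) and a log2 difference of 4.02, or 3.65 and 3.74 under the rescalings. EIF4EBP1, a 4E-binding protein controlled by the kinase mTOR, had 0, 3.64 and 73.1 CPM in oocytes, with 2 pools without a read, and 48.9, 107 and 298 CPM in CC. Spontaneous replicate 3 alone, with 73.1 CPM, put an oocyte pool inside the CC range, and that pool ranked the third of 16 in the sum of cumulus markers (459 CPM), whose part in it was not tested. EIF4EBP2 had 37.7 ± 13.7 CPM in oocytes and 97.3 ± 23.4 in CC, with overlap that was lost under either rescaling. EIF4EBP3 had 128 ± 30.6 and 150 ± 37.1 CPM. EIF4EBP3 lies beside ANKHD1 in mammals and shares a read-through transcript with it, so its reads may not all be its own.

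Of the remaining members, EIF2C2 (Argonaute 2) was higher in every oocyte pool (165 to 326 CPM) than in any CC pool (51.0 to 86.9 CPM), a 3.41-fold higher mean. EIF5A, which carries the amino acid hypusine and helps elongation, had 41.0 ± 11.02 and 49.0 ± 8.05 CPM. Its relative EIF5A2 had 0.713 ± 1.16 CPM in oocytes, with 6 of 16 pools without a read, and 4.34 ± 1.52 CPM in CC. EIF6, which keeps the large ribosomal subunit from joining too early, had 7.85 ± 8.83 CPM in oocytes and 39.5 ± 20.5 in CC, with overlap. EIF4A3 had 27.4 ± 14.9 and 53.0 ± 14.4 CPM.

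Ratios of related factors within a pool do not depend on the library scaling except through the 1 added to each CPM, which matters for low factors, and 12 pairs chosen by name were compared between the 16 oocyte and 17 CC pools by a two-sided permutation test with 100000 resamples. Transcript lengths were not used, so a ratio is read between cell types and not as the order of the 2 genes in a cell. The test ignores that oocytes and CC came from the same complexes. All 12 differed at an adjusted p under 0.05 (Benjamini-Hochberg over the 12), all 12 kept their sign in each follicle classification, and 5 had ranges that did not overlap. Ratios of other gene pairs were not computed, so these counts cannot be read as particular to related factors. Several pairs share a denominator (EIF2AK1, EIF4E, EIF4EBP1 or EIF4G1), so the 12 are not all separate results. Single genes often differed as well, with 37.6% of all genes not overlapping and a median absolute log2 difference of 1.87. EIF4A2 relative to EIF4A1 was -0.68 ± 0.25 in oocytes and 1.01 ± 0.39 in CC (log2 ratio, SD), below 0 in every oocyte pool and above 0 in every CC pool (difference -1.69, SE 0.113, p = 2e-05, the smallest the permutations can give, adjusted p = 2.4e-05). EIF1B relative to EIF1 was -1.79 ± 0.43 in oocytes and -3.14 ± 0.31 in CC. Against EIF2AK1, the kinases EIF2AK2 (-6.87 ± 1.80 and -0.46 ± 0.64), EIF2AK3 (-3.64 ± 0.72 and -0.72 ± 0.65) and EIF2AK4 (-2.51 ± 0.47 and 1.15 ± 0.30) were all lower in oocytes without overlap, each with the same smallest p. These ratios share EIF2AK1 and are not separate results. The log2 difference between cell types was 2.97 for EIF2AK1 alone, and -3.43, 0.05 and -0.69 for EIF2AK2, EIF2AK3 and EIF2AK4. EIF4G2 relative to EIF4G1 differed least (4.04 ± 0.42 and 4.35 ± 0.18, difference -0.31, SE 0.114, permutation adjusted p = 0.0101). EIF4G3 relative to EIF4G1 (2.15 ± 0.48 and 1.25 ± 0.24) and EIF4EBP3 relative to EIF4EBP1 (4.79 ± 1.69 and 0.32 ± 0.80) were higher in oocytes, and EIF5A2 relative to EIF5A (-4.77 ± 0.83 and -3.27 ± 0.50) was lower, with overlap. EIF4EBP2 relative to EIF4EBP1 was higher in oocytes as well (3.01 ± 1.79 and -0.29 ± 0.69). The log2 difference between cell types was -4.69 for EIF4EBP1 alone. EIF4EBP2 (-1.39) and EIF4EBP3 (-0.22) also had negative differences, so their higher ratios rest on EIF4EBP1. The cap-binding relatives EIF4E2 (-4.25 ± 0.74 and -3.14 ± 0.53) and EIF4E3 (-7.17 ± 1.31 and -5.53 ± 0.68), each relative to EIF4E, were lower in oocytes. EIF4E alone had a 2.61-fold higher mean in oocytes. The log2 difference of EIF4E2 alone was 0.29, and EIF4E3 had means of 3.45 CPM in oocytes and 3.22 in CC. Both ratios therefore mainly follow EIF4E. With 0.1 added in place of 1, all 12 kept their direction and an adjusted p under 0.05, but the difference grew where a factor was low, from -1.50 to -3.20 for EIF5A2/EIF5A, from -1.65 to -2.18 for EIF4E3/EIF4E, from 3.30 to 4.15 for EIF4EBP2/EIF4EBP1, from 4.47 to 5.34 for EIF4EBP3/EIF4EBP1 and from -6.41 to -7.15 for EIF2AK2/EIF2AK1.

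**Figure D3:**
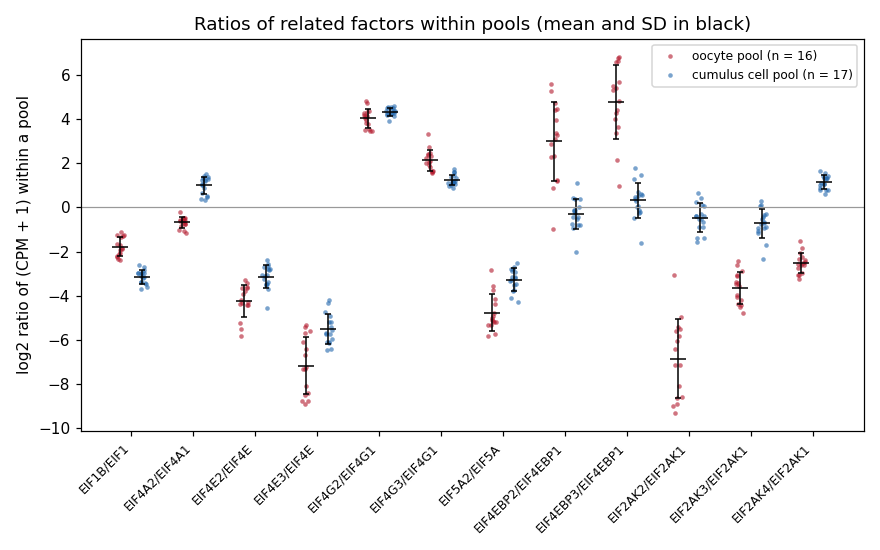
Log2 ratio of (CPM + 1) of related factors within each oocyte pool (red, n = 16) and CC pool (blue, n = 17), with mean and SD in black. The points of the cell types do not overlap for EIF1B/EIF1, EIF4A2/EIF4A1 and the 3 ratios to EIF2AK1, and EIF4A2/EIF4A1 lies below 0 in oocytes and above 0 in CC.

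Few initiation factors were called between follicle classifications. Over the 6 comparisons 2 calls were made among 312 tests of these transcripts at limma's nominal p of 0.01 or less, namely EIF2B5 and EIF4G2 in oocytes (comparisons with small oocytes had to pass without small replicate 3 as well), and 20 tests had an unadjusted p under 0.05. No transcript of the group had a Benjamini-Hochberg adjusted p under 0.05 over all transcripts tested. For scale, calls were made for 0.655% of all tested transcripts between small and large oocytes (none of the 52 factors), 0.774% between small and spontaneous oocytes (1 of 52) and 0.943% between large and spontaneous oocytes (1 of 52). In CC, where none of the 52 was called in any comparison, the shares were 0.813% (small and large), 2.38% (small and spontaneous) and 1.66% (large and spontaneous). The CC shares depend on the setting. Without mitochondrially encoded genes the calls between small and spontaneous CC fell from 231 (221 higher in spontaneous and 10 higher in small) to 129 (84 and 45), and between large and spontaneous CC from 161 (141 higher in spontaneous and 20 higher in large) to 125 (91 and 34). Between small and large CC they went from 79 (67 higher in large and 12 higher in small) to 63 (29 and 34). With median-of-ratios scaling there were 126 calls (79 and 47) between small and spontaneous CC and 118 (62 and 56) between large and spontaneous CC. With all genes kept, the calls numbered 141 and 99 in these comparisons without spontaneous replicate 5, and 88 between large and spontaneous CC without spontaneous replicate 4. When a call had to be made by both edgeR and DESeq2, as in the study, an alternative added after seeing the data, the factors called were EIF2B5 between small and spontaneous oocytes and EIF2AK4 between large and spontaneous CC. Over all transcripts edgeR called 56 and DESeq2 121 of 10076 in the first of these comparisons, and 127 and 199 of 9712 in the second. The share called by both is not given here. The factors with an unadjusted p under 0.05 numbered 3, 7 and 3 of 52 in the oocyte comparisons in that order and 3, 2 and 2 in the CC comparisons, against 4.11, 4.51, 4.87, 4, 8.55 and 7.07% of all transcripts.

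**Figure D4:**
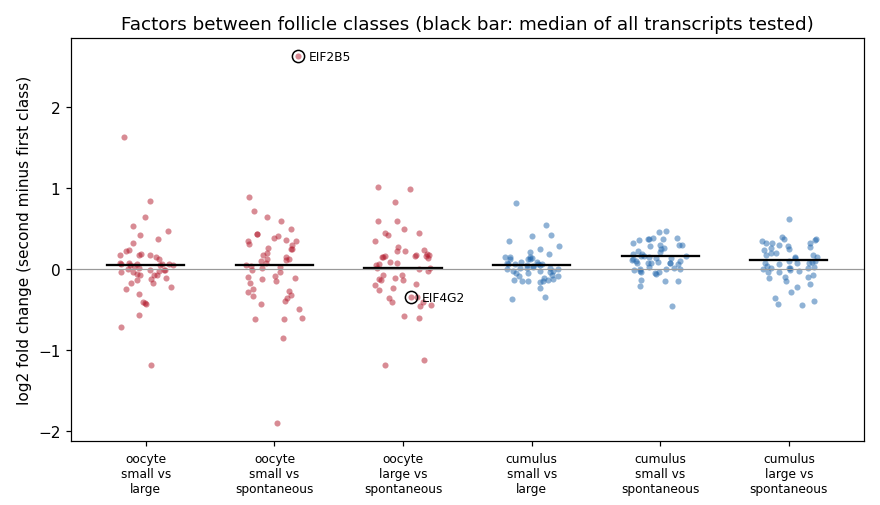
Log2 fold change of the 52 retained factors in each comparison of follicle classifications in oocytes (red) and CC (blue), second named minus first named, with the median of all transcripts tested as a black bar and called factors circled. EIF2B5 in small versus spontaneous oocytes (2.63) and EIF4G2 in large versus spontaneous oocytes (-0.35) are the circled points.

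EIF2B5 was the factor that differed most between small and spontaneous oocytes. The catalytic subunit of eIF2B had 0.568, 0.961, 7.96, 0.736, 3.74 and 1.46 CPM in small replicates 1 to 6, and 20.1, 4.92, 20.3 and 36.5 CPM in spontaneous replicates 1 to 4. In large oocytes its lowest, median and highest values were 0.933, 11.6 and 24.6 CPM. Small and spontaneous pools overlapped through small replicate 3 and spontaneous replicate 2. The log2 fold change from small to spontaneous was 2.63 (SE 0.749, limma p = 0.00152, adjusted p = 0.755, exact permutation p = 0.00952 on CPM), and the call held without small replicate 3 (2.96). It was lost without spontaneous replicate 4 (log2 fold change 2.27). From small to large the log2 fold change was 1.63 (SE 0.695, limma p = 0.0257, adjusted p = 0.997, exact permutation p = 0.0346), and it passed without large replicate 3 (2.08). In that fit 60 of all 9994 transcripts were called. The 6 small pools rest on 7 to 61 reads each. Sums of cumulus markers, HAS2 included, were 208 to 464 CPM in small and 210 to 459 CPM in spontaneous oocyte pools. In CC, where EIF2B5 was higher, it had 38.2 ± 10.3, 36.6 ± 13.3 and 45.02 ± 7.45 CPM in small, large and spontaneous pools.

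EIF4G2 was lower in spontaneous than in large oocytes. Large pools had a lowest, median and highest value of 994, 1033 and 1117 CPM, and spontaneous replicates 1 to 4 had 681, 1015, 730 and 883 CPM. Only spontaneous replicate 2 lay within the large range. The log2 fold change was -0.35 (SE 0.122, limma p = 0.00868, adjusted p = 0.968, exact permutation p = 0.019). The call was lost when any 1 large pool, spontaneous replicate 1 or spontaneous replicate 3 was left out. The fold change stayed between -0.33 and -0.36 without a large pool and was -0.26 without spontaneous replicate 1 and -0.29 without spontaneous replicate 3. Neither edgeR nor DESeq2 called it.

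EIF3L was the factor whose small and spontaneous oocyte ranges did not overlap, as was found for 0.903% of all transcripts tested. It had 428, 420, 333, 394, 368 and 380 CPM in small replicates 1 to 6 and 330, 301, 235 and 281 CPM in spontaneous replicates 1 to 4. The log2 fold change of -0.44 (SE 0.166, limma p = 0.0134, adjusted p = 0.987, exact permutation p = 0.00476, the smallest this design allows) did not meet the threshold. From large to spontaneous it was -0.36 (limma p = 0.0277, exact permutation p = 0.019). EIF2S3 had 81.2 ± 17.2 CPM in small and 46.9 ± 22.1 in spontaneous oocytes (log2 fold change -0.86, SE 0.323, limma p = 0.0128, exact permutation p = 0.0381). EIF2S3 passed the threshold without spontaneous replicate 2 (-1.13), and so did EIF4G2 between small and spontaneous oocytes (-0.46). Without that pool 3 of the 52 factors and 99 of all 9992 transcripts were called. EIF6, named here after its values were seen, had 11.5 ± 9.57 CPM in small and 1.57 ± 0.905 in spontaneous oocytes (log2 fold change -1.90, SE 0.771, limma adjusted p = 0.987). EIF4G3 had 289 ± 41.8 CPM in large and 219 ± 37.8 in spontaneous oocytes (-0.41, limma p = 0.0258, exact permutation p = 0.0143). Between small and large oocytes, EIF3A had 104 ± 44.2 and 139 ± 20.1 CPM (0.53, limma p = 0.0448, exact permutation p = 0.11). EIF3C had 120 ± 37.7 and 158 ± 28.6 CPM (0.42, limma p = 0.0457, exact permutation p = 0.0866).

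In CC the values of the leading factors did not meet the threshold. EIF4EBP3 had 123, 104, 93.1, 169, 139 and 95.8 CPM in small replicates 1 to 6, while large pools had 141, 157 and 225 CPM as lowest, median and highest value. The classifications overlapped through small replicate 4 and were 0.55 apart on the log2 scale (SE 0.195, limma p = 0.0114, adjusted p = 0.999, exact permutation p = 0.0216). The difference passed without small replicate 4 (0.65) and without large replicate 3 (0.60). Over all transcripts 68 of 9635 and 68 of 9679 were called in those fits. EIF2AK4 had 207 ± 28.4 CPM in large and 158 ± 25.5 in spontaneous CC (-0.39, SE 0.156, limma p = 0.0223, exact permutation p = 0.0216), and it was called there by edgeR and DESeq2 (both -0.49). Small replicate 6 alone had 275 CPM while the other small pools had 122 to 158 CPM. Without that pool EIF2AK4 passed between small and large CC (0.57), where 113 of all 9655 transcripts were called. EIF1AX had 169 ± 22.4 CPM in large and 226 ± 56.3 in spontaneous CC (0.39, limma p = 0.037, exact permutation p = 0.0455), and small replicate 3 had 415 CPM. Without that replicate EIF1AX passed between small and spontaneous CC (0.65), where 269 of all 9677 transcripts were called. EIF3K had 112 ± 7.51, 87.3 ± 14.0 and 114 ± 21.0 CPM in small, large and spontaneous CC, with its lowest mean in large (small versus large -0.37, limma p = 0.0437, exact permutation p = 0.00433). EIF2B1 had 11.9 ± 4.77 CPM in small and 24.0 ± 19.2 in large CC (0.81, limma p = 0.0392, exact permutation p = 0.0563), where 1 large pool had 63.1 CPM. EIF3G had 51.3 ± 12.8 CPM in small and 70.3 ± 16.3 in spontaneous CC (0.46, limma p = 0.0457, exact permutation p = 0.0476), and EIF4E had 162 ± 33.4 and 206 ± 24.3 CPM (0.37, limma p = 0.0465, exact permutation p = 0.0368). The median log2 fold change of the 52 factors from small to spontaneous CC was 0.12, beside 0.16 for all transcripts tested, and without mitochondrially encoded genes the medians were -0.03 and 0.02.

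**Figure D5:**
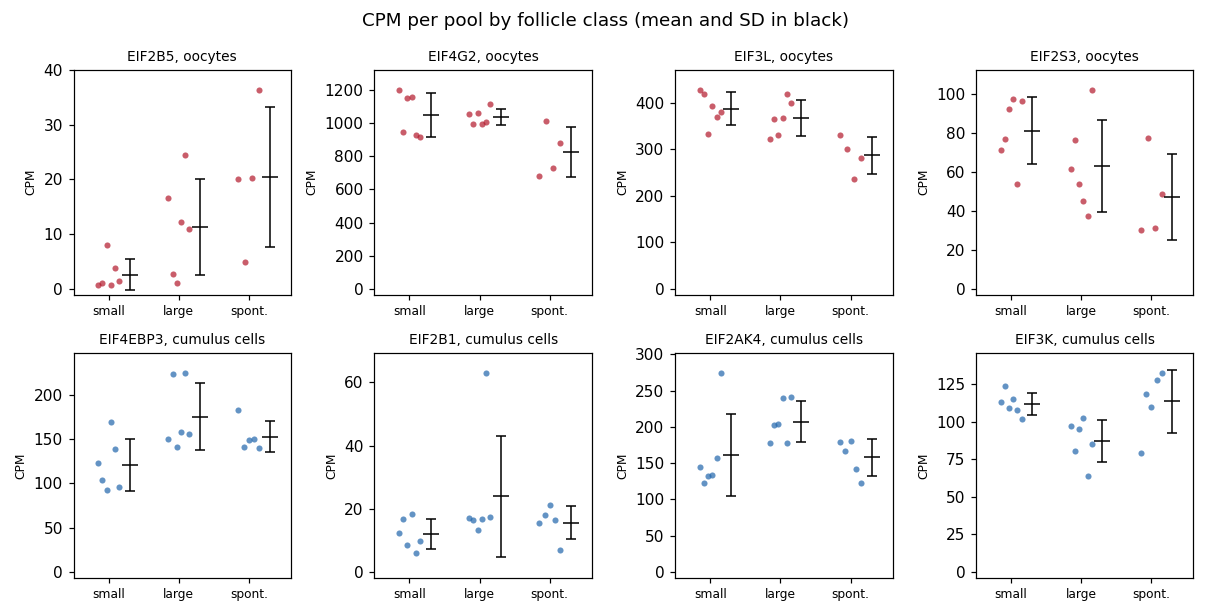
CPM of 4 factors in oocyte pools (red) and 4 in CC pools (blue) by follicle classification, with each pool as a point and the mean and SD in black beside it. EIF2B5 has means of 2.57 in small, 11.3 in large and 20.4 in spontaneous oocytes with overlapping pools, EIF3L is below all small pools in the 4 spontaneous oocyte pools, and 1 large CC pool with 63.1 CPM stands apart for EIF2B1.

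Pools of a classification were close to each other for many initiation factors. The median within-class SD of log2(CPM + 1) was 0.45 for the factors and 0.66 for all transcripts tested in oocytes, and 0.31 and 0.48 in CC. EIF4A1 had the smallest spread of the factors in both cell types (0.12 in oocytes and 0.17 in CC). In oocytes 0.0298% of all tested transcripts had a smaller SD, and in CC 0.268%. Transcripts were not matched on level in this comparison.

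Genes that act around the initiation factors were taken from lists of signalling, poly(A)-binding and recycling, stress-response and elongation genes, 36 of them tested in oocytes and 37 in CC. TSC2, which restrains mTOR, was called in 1 comparison, that of small and large oocytes. It was the 1 call among the 36 genes tested there, beside 66 of all 10076 transcripts (0.655%). A single call cannot show an excess for these lists. It was lower in large than in small oocytes (-0.73, SE 0.237, limma adjusted p = 0.997), and none of the others was called in any comparison. Between cell types 18 of 38 had ranges that did not overlap, 7 higher in oocytes and 11 higher in CC, where over all genes the shares were 37.6% in all, 23.8% higher in oocytes and 13.8% higher in CC. PAIP1, which binds the poly(A)-binding protein and stimulates translation, had 1589 ± 172 CPM in oocytes and 68.0 ± 16.7 in CC, and the kinases of eIF4E, MKNK1 (156 ± 40.9 against 14.8 ± 6.12 CPM) and MKNK2 (158 ± 38.7 against 18.4 ± 6.18), were also higher in oocytes. PABPC1L, an oocyte poly(A)-binding protein, had 22.02 ± 12.9 CPM in oocytes and 1.55 ± 1.75 in CC, while the somatic PABPC1 had 642 ± 103 and 2684 ± 627 CPM. The phosphatase subunits that restore eIF2 differed in direction, PPP1R15A being higher in oocytes (73.1 ± 25.2 against 6.14 ± 2.44 CPM) and PPP1R15B lower (20.8 ± 15.7 against 112 ± 29.2). PDCD4, an inhibitor of eIF4A, had 14.7 ± 9.60 CPM in oocytes and 154 ± 61.6 in CC. Of 7 elongation and termination genes 5 were higher in CC without overlap (13.8% of all genes were), among them EEF2 (163 ± 42.0 against 869 ± 159 CPM), and none was higher in oocytes without overlap.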

How the data were processed

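Oocytes and CC of 4 complexes were pooled per library by the authors, and RNA was amplified with the Ovation RNA-Seq System V2. The authors aligned reads with Hisat2 to the UMD3.1 genome and assigned them to Ensembl genes with FeatureCounts, whose strand setting is not given in the sources used here, so sense and antisense reads cannot be told apart. The deposited values are CPM, scaled by the authors to each library's reads on genes, in separate oocyte and CC tables. Symbols were taken from the tables, and 0 columns were unmatched. Whole reads were recovered for 100% of values (within 0.01 reads). Pools of a group all differed by more than counting noise (chi-square divided by its degrees of freedom was at least 60.9 for oocytes and 13.4 for CC). A genome of that build and transcript lengths were not used here, so levels are not compared between genes.

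Transcripts that reached 5 CPM in 4 or more oocyte pools, or in 5 or more CC pools, were tested on log2(CPM + 1) with limma 3.58.1 (R 4.3.3) and its variance trend, two-sided, fitted on the 2 classifications compared. A nominal p of 0.01 or less was a call, and in comparisons with small oocytes it had to hold without small replicate 3. The study took nominal p from both edgeR and DESeq2 on counts, whereas here limma was used because the deposited unit is CPM. Fold changes on this scale understate the change of low genes. For named genes an exact permutation test of mean CPM (two-sided) was added. Alternatives were a pseudocount of 0.1, no filter, median-of-ratios scaling, CPM without mitochondrially encoded genes, edgeR 4.0.16 and DESeq2 1.42.0 on the recovered reads, a replicate block, and each pool left out. Tests were tried on simulated data first. Named genes were those called and the 3 with the smallest nominal p in each comparison, up to 5 in each direction between cell types without overlap, the paralog pairs and the eIF2 subunits. Other factors are given by role. Members and lists were chosen with earlier results of these data known. The results of 1 gene are not reported here.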

Additional observations from a re-analysis of the deposited data

Results flagged for a closer look

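For the 34 named factors each of the 6 groups of pools was checked for a pool that lay further from the others than Dixon's 95% limit allows. This was so in 19 of 204 groups. The limit gives about 1 in 20 by chance for independent, normally distributed values. CPM need not be such values and several flags fall in the same pool, so the count cannot show an excess over chance. In oocytes, large replicate 2 had 163 CPM of EIF1B (others 75.6 to 95.3), and large replicate 6 had 76.5 CPM of EIF2AK2 (others 0.142 to 20.5). Large replicate 5 had 44.5 CPM of EIF3G (others 4.40 to 18.8) and 4.43 CPM of EIF5A2 (others 0 to 0.622). Spontaneous replicate 1 had 150.1 CPM of EIF2S2 (others 82.6 to 89.1). Spontaneous replicate 3 had 80.6 CPM of EIF2S1 (others 60.1 to 63.1), 73.1 CPM of EIF4EBP1 (others 0.502 to 4.45) and 1.82 CPM of EIF5A2 (others without a read).

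In CC, small replicate 3 had 415 CPM of EIF1AX (others 120.2 to 181). Small replicate 6 had 159 CPM of EIF2AK2 (others 23.1 to 67.0) and 275 CPM of EIF2AK4 (others 122 to 158). Large replicate 2 was low for EIF3C with 120.3 CPM (others 144 to 156) and for EIF4A2 with 266 CPM (others 481 to 536). Large replicate 5 was high for EIF2B1 with 63.1 CPM (others 13.2 to 17.4) and for EIF3L with 177 CPM (others 114 to 137), and large replicate 6 for EIF2AK1 with 116 CPM (others 69.0 to 80.5). Spontaneous replicate 1 had 183 CPM of EIF4EBP3 (others 140.4 to 150.1) and 403 CPM of EIF4G3 (others 239 to 278). Spontaneous replicate 5 was low for EIF4G2 with 2254 CPM (others 2456 to 2512).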

How the results depend on the processing

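No difference that was called, or whose ranges did not overlap, changed sign. Of the overlapping differences between cell types 7 changed sign with median-of-ratios scaling (EIF1, EIF1AD, EIF2AK3, EIF3E, EIF4E2, EIF4G3 and EIF4H) and 5 of these without mitochondrially encoded genes. In oocytes, the number of factors called between small and large was 1 with DESeq2 (EIF2B5) and 0 to 1 with a pool left out. Between small and spontaneous it was 2 with no filter, 2 with median-of-ratios scaling and 2 with CPM without mitochondrially encoded genes (EIF2B5 and EIF3L), 3 with DESeq2 (EIF6 in addition), and 0 to 3 with a pool left out. Between large and spontaneous it was 0 with no filter, 0 with edgeR's quasi-likelihood test, 0 with DESeq2, 0 with the replicate block and 0 to 1 with a pool left out. Calls made by both edgeR and DESeq2, added after seeing the data, numbered 0 between large and spontaneous oocytes and 1 between large and spontaneous CC. In CC the number called was 1 with no filter between small and large (EIF4EBP3) and 1 with median-of-ratios scaling, 1 with edgeR and 1 with DESeq2 between large and spontaneous (EIF2AK4), with 0 to 1, 0 to 1 and 0 to 0 across pools left out in the 3 CC comparisons in the order given in the text. For scale, DESeq2 called 113 of all 10076 transcripts between small and large oocytes, and 121 between small and spontaneous. In the latter comparison 86 of 15582 were called with no filter, 74 of 10076 with median-of-ratios scaling and 68 of 10065 without mitochondrially encoded genes. In CC 101 of 15754 were called with no filter between small and large. Between large and spontaneous CC median-of-ratios scaling gave 118, edgeR 127 and DESeq2 199 of 9712. Between cell types 16 factors did not overlap with median-of-ratios scaling and 16 without mitochondrially encoded genes, of which 9 and 10 were among the 10 reported, and leaving out a pool gave 10 to 13. These 16 are 31.4% of the 51 factors, beside 39.1% and 38.8% of all genes under the same rescalings. Of the values for the named factors of each comparison under the alternatives, 314 kept their direction and side of the threshold, 14 came to pass it, 13 no longer passed it, and 11 differences between cell types moved by more than the spread between pools, none changing direction. All 12 ratios passed with each pool left out. Deviations of same-numbered pools from different follicle classifications of a cell type had correlations of -0.19 to 0.22. With 4 to 6 such pairs a comparison, this cannot exclude that the numbers pair the pools. Oocyte pools were not set against CC pools in this way. The block changed no other count of calls. With limma on all pools and no replicate block every factor had an adjusted p-value of at least 0.58. The lowest was 0.428 with the replicate block, and 0.265 under any alternative (without CC small replicate 3). With 4 to 6 pools a class and amplified RNA, the differences between follicle classifications rest on nominal p-values. Small values such as those of EIF2B5 and EIF6 in oocytes rest on few reads.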
